A study of Fukomys damarensis and Heterocephalus glaber and Cavia porcellus with 28 samples.

Results

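Insulin signalling through PI3K, mTOR and FoxO was followed at the transcript level in heart and liver of 4 rodents, using the genes Irs1, Irs2, Akt1, Akt2, Mtor, Tsc1, Tsc2, Foxo1 and Foxo3. The genes were taken by symbol from the tables of mouse gene identifiers. Of the 9 listed genes, 8 had a row among the 13928 rows of each tissue's table, and all 8 passed the filter on low values in both tissues. Irs2 was not analysed here.

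The series compares the naked mole-rat and the Damaraland mole-rat, long-lived African burrowing rodents, with the guinea pig and the mouse as outgroups. RNA was total RNA depleted of ribosomal RNA, and no treatment, strain or allele is given in the labels. Hearts were taken from 5 Damaraland and 3 naked mole-rats, 3 mice and 3 guinea pigs, and livers from 5, 4, 2 and 3 animals in the same order. Naked mole-rats were 13 to 17 months old, Damaraland mole-rats 36 to 48 months, guinea pigs 2.3 months and mice 2 months, so that age and species cannot be told apart. The animals were males except for 1 female, Damaraland liver replicate 4. The Damaraland animal DMR1 is labelled 48 months old in heart and 36 months old in liver. Of 18 animals, 10 gave both tissues, so the tissues are not independent.

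In the textbook pathway, the activated insulin or IGF-1 receptor phosphorylates the adaptor proteins IRS1 and IRS2, which recruit PI3K. PI3K makes the lipid that brings AKT1 and AKT2 to the membrane. AKT inhibits the TSC1-TSC2 complex, a brake on mTORC1, the growth-promoting kinase complex built on mTOR, and it also keeps FOXO1 and FOXO3 out of the nucleus. In liver FOXO factors support fasting glucose production, and in heart they take part in control of muscle mass and stress resistance.

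Library totals recovered from the values were 4089633 to 26985779 reads for hearts and 11220505 to 21467939 reads for livers. The shallowest was naked mole-rat heart replicate 3, which held 68 reads of Foxo1, the lowest count of any member in any library. Myh6, Actc1 and Tnnt2, cardiomyocyte genes, ranked between 1 and 25 in all heart libraries, and Alb, the albumin gene, ranked 1 in all liver libraries. Values below are the variance-stabilised ones, in log2-like units, except where reads are named. Scaled reads are recovered reads over the size factor of their library. The values hold no correction for transcript length, which can differ between species, so that levels of different genes are not compared, and the part of length or gene annotation in a difference between species was not tested. In these bulk samples fewer cells of a type and less RNA per cell cannot be told apart. A gene was called at a limma adjusted p under 0.05 (Benjamini-Hochberg, over all genes of the tissue) and a difference of at least 1.

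Foxo3 was lower in the mole-rats than in the outgroups in both tissues, and it was the only member called in both when the mean of the mole-rats was set against the mean of the outgroups. Tested against a difference of 1 instead of 0, this Foxo3 contrast was called in neither tissue (limma adjusted p 0.131 in heart and 0.191 in liver). In heart, 3 of the 8 members were lower in mole-rats in this average contrast, Irs1, Tsc1 and Foxo3, where 12.6% of 10667 genes were called lower. In liver, Foxo3 alone of the 8 was lower, where 13% of 10887 genes were. No member was called higher, against 10.8% of genes in heart and 15.1% in liver. Akt1 and Mtor were called in none of 12 comparisons between species, 6 in each tissue. No member was called in all 4 comparisons of a mole-rat with an outgroup, which 4.68% of genes met in heart and 6.29% in liver.

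**Figure D1:**
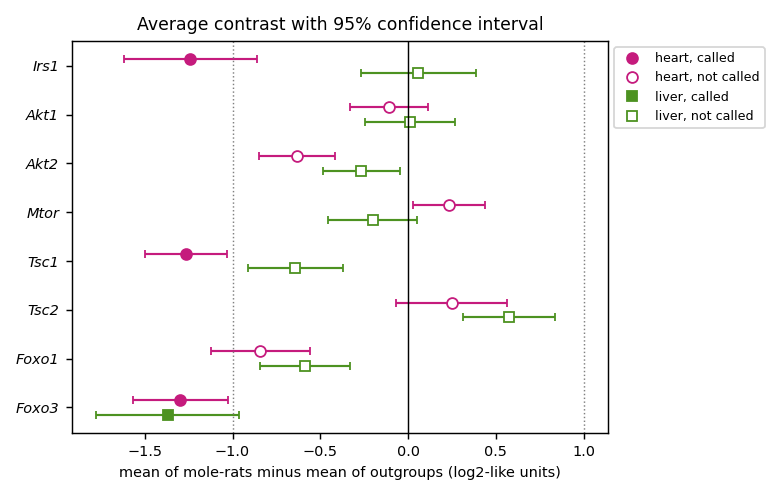
The mean of the mole-rats minus the mean of the outgroups, in log2-like units, for each of the 8 genes in heart (circles) and liver (squares), with 95% confidence intervals from limma. Filled symbols were called, dotted lines mark a difference of 1, and Foxo3 is filled in both tissues at -1.30 and -1.37.

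Over the members the median average contrast was -0.74 in heart, beside -0.01 over all genes tested, and -0.23 in liver, beside 0.02. The median of the absolute contrast was 0.74 for members and 0.53 for all genes in heart, and 0.42 and 0.58 in liver. The range of the 4 species means had a median of 1.51 over members and 1.41 over all genes in heart, and 0.91 and 1.58 in liver. Of 48 pairwise comparisons per tissue (8 genes by 6 pairs of species), 17 were called in heart and 10 in liver. Over all genes the share called in a pair ran between 29.4% and 38.2% in heart and between 34.2% and 41.2% in liver, and the median gene was called in 2 of 6 pairs in heart and 3 of 6 in liver.

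Irs1 encodes the adaptor that couples the insulin and IGF-1 receptors to PI3K. In heart its values were 10.54, 10.46 and 9.69 in naked mole-rats and 9.73, 10.04, 9.16, 10.12 and 9.72 in Damaraland mole-rats, against 11.52, 11.32 and 11.97 in guinea pigs and 10.70, 10.74 and 11.14 in mice. Every mole-rat heart thus lay under every outgroup heart. The average contrast was -1.24 (SE 0.18; limma adjusted p 1.2e-05), and mean scaled reads were 805 ± 212 (SD, n = 5) for Damaraland and 1162 ± 360 (SD, n = 3) for naked mole-rats, beside 1796 ± 331 (SD, n = 3) for mice and 3087 ± 746 (SD, n = 3) for guinea pigs. Both mole-rats were lower than guinea pig, with differences of -1.37 for naked and -1.85 for Damaraland mole-rat. Damaraland mole-rat was also lower than mouse, by a difference of -1.11 (limma adjusted p 0.00061). That call was lost, at -0.96 without Damaraland replicate 3 and -0.97 without mouse replicate 3. Naked mole-rat and mouse were neighbours in the order and differed by -0.63, under the size threshold.

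In liver Irs1 was ordered differently. Its values were 10.94, 11.02, 11.66 and 11.01 in naked mole-rats, close to 11.13, 11.53 and 11.54 in guinea pigs, but 10.11, 10.00, 9.51, 10.33 and 9.86 in Damaraland mole-rats and 9.49 and 9.72 in mice. The naked mole-rat and guinea pig libraries all lay above the Damaraland and mouse libraries. Naked mole-rat was higher than Damaraland mole-rat by 1.19 (SE 0.18; limma adjusted p 1.87e-05) and than mouse by 1.55 (SE 0.24; limma adjusted p 1.94e-05), and differed from guinea pig by -0.24 (limma adjusted p 0.314). The average contrast was 0.06 (95% interval -0.27 to 0.38), since each mole-rat lay near a different outgroup. Irs1 was the only member called between the mole-rats in either tissue: 0 of 8 members were called in heart, where 29.4% of genes were (limma; 4 had an unadjusted p under 0.05), and 1 of 8 in liver, where 34.2% were. Voom on the recovered reads gave the same counts, 0 and 1.

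**Figure D2:**
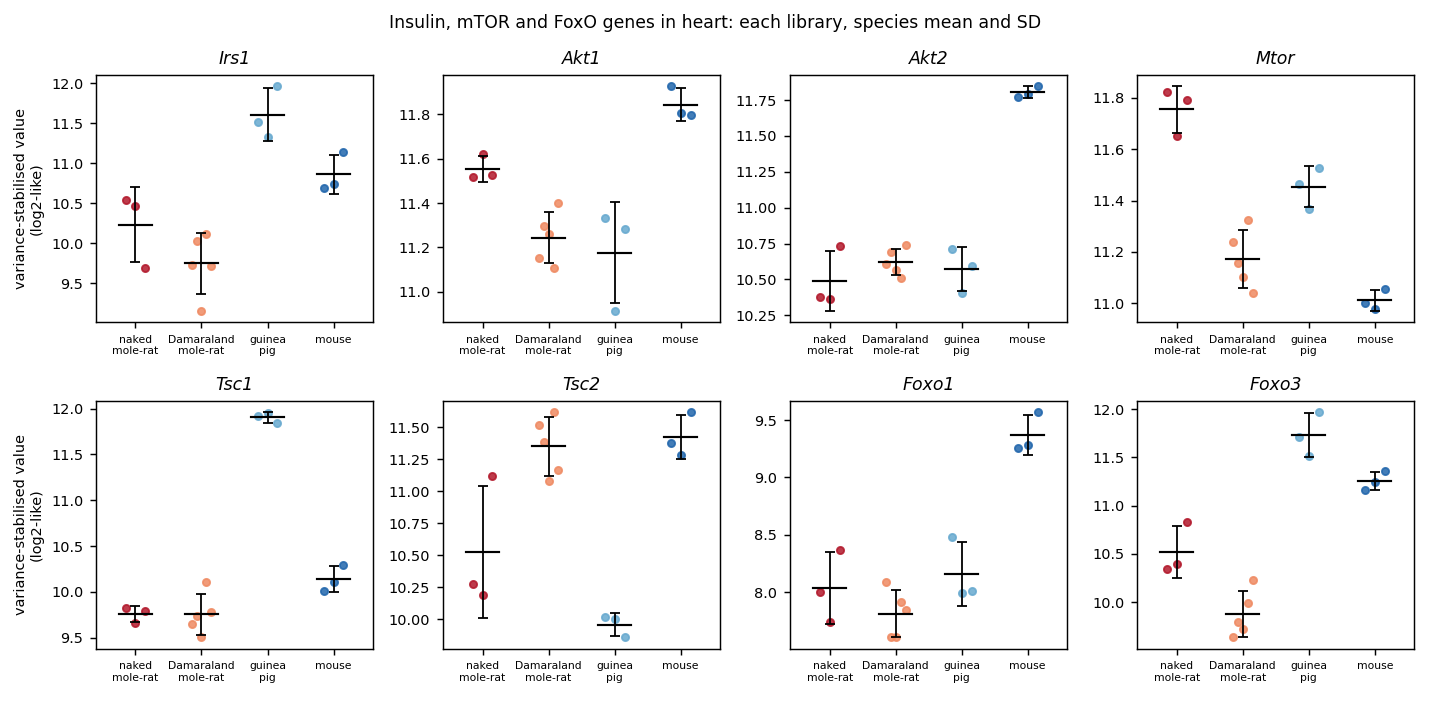
Variance-stabilised values (log2-like units) of the 8 genes in the 14 heart libraries, by species; points are libraries, the wide bar is the species mean and the whisker the SD, and each panel has its own vertical scale. All 8 mole-rat points lie under all 6 outgroup points for Irs1 and Foxo3, and guinea pig stands above the others for Tsc1.

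Akt1 and Akt2 encode the AKT kinases, of which AKT2 is the isoform best known for insulin-driven glucose handling. Akt1 varied least among the members. In heart its species means ran from 11.18 in guinea pig to 11.84 in mouse, and the average contrast was -0.11 (95% interval -0.33 to 0.11). In liver the means ran from 9.67 to 9.93, a range of 0.26 that 0.79% of the genes tested matched or fell under, and the average contrast was 0.01 (95% interval -0.25 to 0.27).

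Akt2 was higher in mouse heart than in the other species. Its values were 11.77, 11.79 and 11.85 in mice, whereas the 11 other hearts ran from 10.36 to 10.74 and overlapped between species. Mouse scaled reads were 3498 ± 100 (SD, n = 3), beside species means of 1367 to 1497 in the others. The differences from mouse were -1.32 for naked mole-rat, -1.18 for Damaraland mole-rat and -1.23 for guinea pig (limma adjusted p at most 3.51e-06). In liver mouse again had the highest mean, 10.73, and naked mole-rat the lowest, 9.85, but the difference of -0.88 (SE 0.16; limma adjusted p 0.000119) was under the size threshold and no pair was called.

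Mtor encodes the kinase of both mTOR complexes. In heart its values were 11.83, 11.65 and 11.79 in naked mole-rats, above 11.04 to 11.33 in Damaraland mole-rats, 11.37 to 11.53 in guinea pigs and 10.98 to 11.06 in mice. Naked mole-rat hearts were the highest without overlap, with differences of 0.58 from Damaraland mole-rat and 0.75 from mouse that passed the adjusted p (0.000884 and 0.000246 with limma) and not the size threshold. At any size, 62.4% and 65.2% of genes passed the adjusted p in these comparisons. In liver the naked mole-rat was at the other end: its values were 10.03, 10.05, 10.51 and 10.59, all under the lowest library of the other species, 10.62 in guinea pig. The liver differences of naked mole-rat were -0.54 from Damaraland mole-rat, -0.53 from guinea pig and -0.41 from mouse (limma adjusted p 0.00287, 0.00832 and 0.0585). The tables were normalised separately, and the difference between the tissues was not tested.

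Tsc1 and Tsc2 encode hamartin and tuberin, the subunits of the complex that restrains mTORC1. Tsc1 was higher in guinea pig heart than in any other species. Its values were 11.92, 11.95 and 11.84 in guinea pigs, against 9.82, 9.66 and 9.79 in naked mole-rats, 9.65, 9.74, 9.5, 10.11 and 9.78 in Damaraland mole-rats and 10.01, 10.11 and 10.29 in mice. The mole-rats had the same mean, 9.76, with a difference of 0.00 (SE 0.15). Guinea pig scaled reads were 3750 ± 155 (SD, n = 3), beside 786 ± 52 (SD, n = 3) in naked mole-rat, 793 ± 142 (SD, n = 5) in Damaraland mole-rat and 1049 ± 113 (SD, n = 3) in mouse. Against guinea pig the differences were -2.15 for naked and -2.15 for Damaraland mole-rat, and guinea pig minus mouse was 1.77 (limma adjusted p at most 1.18e-07). The heart call of Tsc1 in the average contrast, -1.26 (SE 0.11; limma adjusted p 3.65e-08), therefore came with differences of only -0.38 between either mole-rat and mouse.

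Guinea pig hearts also stood apart in markers of other cell types. The summed level of the 6 leukocyte genes was 489 to 687 RPM (reads relative to the library total) in guinea pig heart and 36.1 to 179 in the other species, and no leukocyte gene was at 0 in a guinea pig heart. The 5 endothelial genes found of 6 summed to 897 to 1312 in guinea pig heart and 389 to 636 elsewhere, and the 5 fibroblast genes found of 6 to 3345 to 9520, beside 405 to 3214. In guinea pig liver the leukocyte genes summed to 381 to 502 RPM, beside 86.4 to 192 in the other species, the endothelial genes to 517 to 557, beside 186 to 319, and the fibroblast and stellate cell genes to 501 to 810, beside 138 to 452. The part of these markers in the guinea pig values was not tested.

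For Tsc2 in heart, guinea pig was lowest, at 10.02, 10.00 and 9.86, and its libraries lay under all others. Damaraland mole-rat was 11.52, 11.38, 11.08, 11.62 and 11.16 and mouse 11.38, 11.28 and 11.62, with a difference of -0.07 between these species. Guinea pig was lower than both: Damaraland mole-rat minus guinea pig was 1.39 (SE 0.20; limma adjusted p 1.36e-05) and guinea pig minus mouse -1.47 (SE 0.22; limma adjusted p 2.94e-05). Naked mole-rat was split, at 10.27 and 10.19 in replicates 1 and 2 and 11.12 in replicate 3, the library with the fewest reads. Without replicate 3 naked mole-rat was lower than Damaraland mole-rat by a difference of -1.12 and than mouse by -1.19, both called, whereas with it the differences were -0.82 and -0.90 and not called.

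In liver the Tsc genes differed between mole-rats and outgroups in contrary directions, by less than the size threshold. All 9 mole-rat libraries lay below all 5 outgroup libraries for Tsc1 (8.23 to 9.0 against 9.20 to 9.66) and above them for Tsc2 (10.10 to 11.02 against 9.74 to 10.05). The average contrast of Tsc1 was -0.64 (SE 0.13; limma adjusted p 0.000289) and that of Tsc2 was 0.57 (SE 0.12; limma adjusted p 0.000535). Damaraland mole-rat minus guinea pig for Tsc1 was -0.94 and became a call at -1.04 without guinea pig replicate 1 and at -1.03 without Damaraland replicate 5. At any size 68% of genes in liver passed the adjusted p, and in heart 67.3%. Libraries of mole-rats and outgroups did not overlap for Tsc1, Tsc2 and Foxo3 in liver, 3 of 8, where 16.1% of genes did not overlap, and for Irs1 and Foxo3 in heart, 2 of 8, where 15.2% did not.

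**Figure D3:**
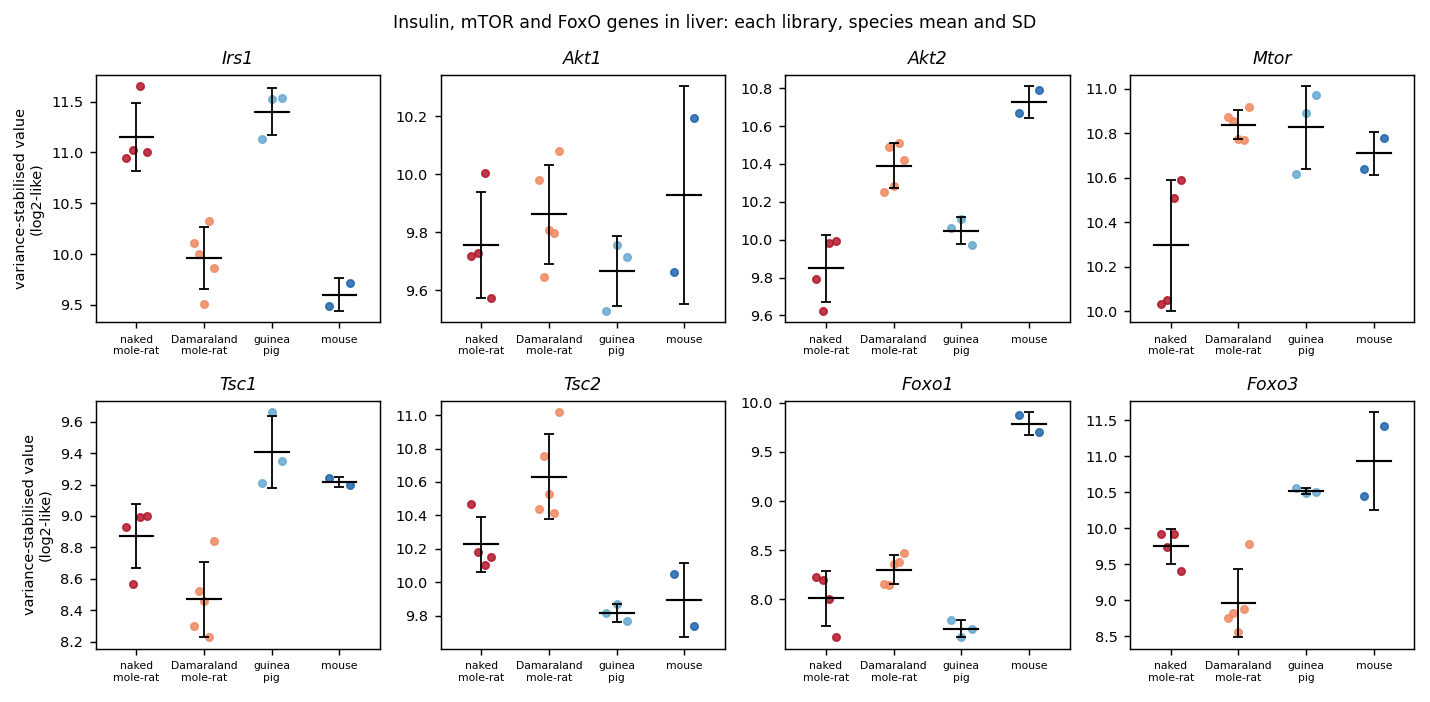
Variance-stabilised values (log2-like units) of the 8 genes in the 14 liver libraries, by species, drawn as for heart; points are libraries, the wide bar is the species mean and the whisker the SD, and each panel has its own vertical scale. Mouse stands above the others for Foxo1, and the mole-rat points lie under all outgroup points for Foxo3 and Tsc1 and above them for Tsc2.

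Foxo1 was higher in mouse than in each of the other species, in both tissues, and no other pair of species was called. In heart the mice had 9.26, 9.28 and 9.57, and the 11 other libraries ran from 7.61 to 8.48. Mean scaled reads were 585 ± 82 (SD, n = 3) in mouse, 190 ± 57 (SD, n = 3) in naked mole-rat, 152 ± 32 (SD, n = 5) in Damaraland mole-rat and 213 ± 57 (SD, n = 3) in guinea pig. Mouse was higher than each: the differences from mouse were -1.34, -1.56 and -1.21 for naked mole-rat, Damaraland mole-rat and guinea pig (limma adjusted p at most 5.91e-05). The average contrast of -0.84 (SE 0.13; limma adjusted p 3.11e-05) was under the size threshold, but voom on the recovered reads, which does not compress low values, gave -1.15 and called it. At this level a doubling of 100 scaled reads moves the heart value by only 0.679.

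Mouse again had the highest Foxo1 in liver. The mice had 9.87 and 9.70, Damaraland mole-rats 8.15, 8.15, 8.37, 8.38 and 8.47, naked mole-rats 8.22, 8.20, 8.0 and 7.62, and guinea pigs 7.79, 7.62 and 7.70. Mouse scaled reads were 847 ± 72 (SD, n = 2), beside species means of 171 to 280. The differences from mouse were -1.78 for naked mole-rat, -1.48 for Damaraland mole-rat and -2.08 for guinea pig (limma adjusted p at most 1.5e-06). Damaraland mole-rat minus guinea pig was 0.60 (SE 0.16; limma adjusted p 0.00273), under the size threshold.

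Foxo3, the FoxO gene linked to human longevity in association studies, was lowest in Damaraland mole-rat in both tissues. In heart its values were 9.64, 9.79, 9.72, 10.00 and 10.23 in Damaraland mole-rats and 10.34, 10.40 and 10.83 in naked mole-rats, against 11.72, 11.52 and 11.97 in guinea pigs and 11.16, 11.25 and 11.36 in mice. The mole-rats did not overlap with the outgroups, nor with each other. Mean scaled reads were 869 ± 163 (SD, n = 5), 1407 ± 288 (SD, n = 3), 3355 ± 544 (SD, n = 3) and 2369 ± 166 (SD, n = 3) in that order. The average contrast was -1.30 (SE 0.13; limma adjusted p 1.65e-07), and -1.24 to -1.37 when each library was left out in turn. Of the 4 comparisons of a mole-rat with an outgroup, 3 were called, at -1.21 for naked mole-rat with guinea pig, -1.86 for Damaraland mole-rat with guinea pig and -1.38 for Damaraland mole-rat with mouse. Naked mole-rat minus mouse was -0.73 (SE 0.19; limma adjusted p 0.00295).

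In liver the values of Foxo3 were 8.76, 8.81, 8.56, 8.88 and 9.78 in Damaraland mole-rats, 9.92, 9.74, 9.92 and 9.41 in naked mole-rats, 10.56, 10.49 and 10.50 in guinea pigs and 10.45 and 11.41 in mice. The outgroups again lay above all mole-rats, and Damaraland replicate 5 reached into the naked mole-rat range. The average contrast was -1.37 (SE 0.19; limma adjusted p 7e-06), and it ran from -1.13 without mouse replicate 2 to -1.61 without mouse replicate 1 when each library was left out in turn. Called differences were -1.56 for Damaraland mole-rat with guinea pig, -1.97 for Damaraland mole-rat with mouse and -1.18 for naked mole-rat with mouse (limma adjusted p 3.03e-05, 1.13e-05 and 0.00199). The last rested on the mice, since without mouse replicate 2 it was -0.70 (limma adjusted p 0.0936), the remaining mouse library being assumed to vary like the other species. Naked mole-rat minus guinea pig was -0.77 (SE 0.26; limma adjusted p 0.0151).

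Cardiomyocyte markers were highest in Damaraland heart. The 6 genes summed to 87190 to 116588 RPM in Damaraland mole-rat, the species with the lowest Foxo3, beside 34115 to 65585 in the other species. In liver the 5 hepatocyte genes found of 6 summed to 103719 to 169625 RPM in the mole-rats and 76288 to 110642 in the outgroups. The 5 cholangiocyte genes found of 6 summed to 143 to 210 in naked mole-rat liver, 11.5 to 40.9 in Damaraland, 66.5 to 190 in guinea pig and 28.1 to 52.3 in mouse. Of 6 erythroid genes only Alas2 had a row, at 118 to 146 RPM in mouse liver and 2.4 to 16.7 in the other livers. Their part in the member values was not tested.

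In heart, naked mole-rat differed from guinea pig for 3 of 8, all lower (33% of genes were called in either direction), and from mouse for 2 of 8, both lower (38.2%). Damaraland mole-rat differed from guinea pig for 4 of 8, with 3 lower and Tsc2 higher (29.7%), and from mouse for 4 of 8, all lower (34.9%). Guinea pig and mouse, the outgroups, differed for 4 of 8, with Tsc1 higher in guinea pig and Akt2, Tsc2 and Foxo1 lower (32.1%). At any size, members with a limma adjusted p under 0.05 numbered 3 between the mole-rats, beside 62.4% of all genes, 5 and 6 for naked mole-rat with guinea pig and mouse, beside 60.8% and 65.2%, and 4 and 6 for Damaraland mole-rat, beside 61.9% and 66.6%. Between the outgroups all 8 passed, beside 59.6%.

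In liver, naked mole-rat differed from guinea pig for 0 of 8 with limma (37.8% of genes in either direction; 4 members had an unadjusted p under 0.05, and voom on recovered reads called 0) and from mouse for 3 of 8, Irs1 higher and Foxo1 and Foxo3 lower (41.2%). Damaraland mole-rat differed from guinea pig for 2 of 8, both lower (36.2%), and from mouse for 2 of 8, both lower (39.2%). Guinea pig differed from mouse for 2 of 8, Irs1 higher and Foxo1 lower (37.2%). At any size the members numbered 6 between the mole-rats, beside 67.7% of all genes, 4 and 4 for naked mole-rat with guinea pig and mouse, beside 65.5% and 64.2%, 6 and 4 for Damaraland mole-rat, beside 65.6% and 63.6%, and 3 between the outgroups, beside 58.8%. The comparisons share species, so that the high mouse Foxo1 enters 3 of the 6 pairs in each tissue.

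Ratios of reads between partner genes in the same library are free of the library's scaling, and the difference of such a ratio between tissues of a species is also free of any fixed length difference of the genes. These ratios were added after the values were seen and are given without a test. A ratio within a tissue still holds the transcript lengths of both genes, so its sign does not rank their expression. Lengths can also differ between species, and their part in ratio differences between species was not tested. The log2 ratio of Tsc1 to Tsc2 reads was 2.03 ± 0.04 (SD, n = 3) in guinea pig heart, where the other hearts had -1.98 to -0.49. In guinea pig liver it was -0.43 ± 0.21 (SD, n = 3), in the negative range of all livers, -2.36 to -0.22. Within the 3 guinea pigs that gave both tissues, the heart ratio exceeded the liver ratio by 2.21 to 2.68, beside 0.23 to 0.81 in 4 Damaraland mole-rats, 0.68 to 1.03 in 2 naked mole-rats and -0.66 in 1 mouse.

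The log2 ratio of Akt1 to Akt2 was higher in heart than in liver in all 10 animals with both tissues, by 0.62 to 1.5. Its species means in heart were 1.11 for naked mole-rat, 0.65 for Damaraland mole-rat, 0.63 for guinea pig and 0.04 for mouse. The log2 ratio of Foxo1 to Foxo3 reads, not corrected for length, was negative in all 28 libraries. It was lowest in guinea pig, at -4.0 ± 0.44 (SD, n = 3) in heart and -3.06 ± 0.07 (SD, n = 3) in liver, and highest in Damaraland liver, at -0.72 ± 0.44 (SD, n = 5). How reads shared by these paralogues were divided is not stated in the sources used here.

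**Figure D4:**
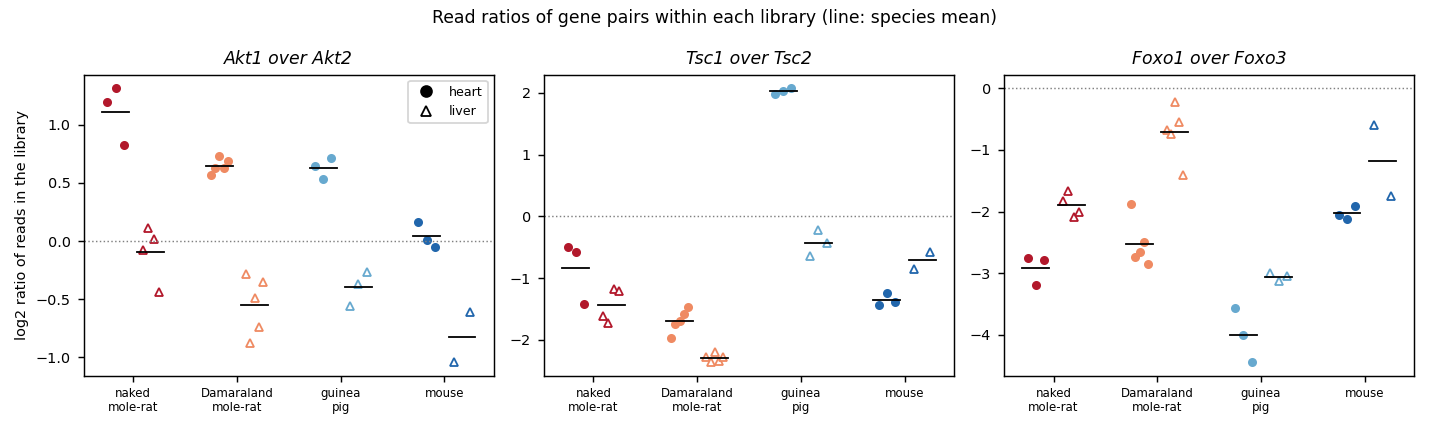
The log2 ratio of reads of Akt1 to Akt2, Tsc1 to Tsc2 and Foxo1 to Foxo3 in each library, by species; filled circles are heart, open triangles liver and lines species means. Guinea pig hearts sit near 2 for Tsc1 over Tsc2, and all other libraries of that panel are below 0.

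Of 100 further genes of the pathway, 91 had a row, and 88 passed the filter in heart and 91 in liver. In heart 2 were higher and 16 lower in the average contrast, where 23.4% of all genes were called in either direction, and their median contrast was -0.28 beside -0.01 over all genes. In liver 11 were higher and 13 lower, where 28.1% of all genes were called, with a median of -0.19 beside 0.02. Shares called were 20.5% of these genes in heart and 26.4% in liver, near the share over all genes. By direction, 10.8% of all genes were called higher and 12.6% lower in heart, and 15.1% and 13% in liver.

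The first group held the receptors, PI3K subunits, phosphatases and further adaptors. In heart 4 of 20 were lower and 0 higher (median -0.21), and in liver 4 of 20 were lower and 0 higher (median -0.14). Gab1, an adaptor that recruits PI3K to growth factor receptors, was lower in both tissues, by contrasts of -1.67 (SE 0.14; limma adjusted p 1.83e-08) and -1.46 (SE 0.11; limma adjusted p 4.28e-09). Grb10, which binds the insulin receptor and dampens its signal, was lower in heart, where the means of naked and Damaraland mole-rat were 8.03 and 8.70 and those of guinea pig and mouse 10.67 and 10.98 (contrast -2.46, SE 0.11; limma adjusted p 1.06e-11), and had a liver contrast of 0.88, under the size threshold. Ptpn1, the phosphatase PTP1B that acts on the insulin receptor, was lower in liver (-1.47, SE 0.17; limma adjusted p 7.16e-07). The receptor genes Insr and Igf1r were not called in either tissue, with contrasts of 0.24 and 0.30 in heart and 0.38 and 0.46 in liver.

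In the group of mTOR complex subunits and their nutrient and energy sensors, 1 was higher and 4 lower of 33 in heart (median -0.22), and 5 were higher and 4 lower of 34 in liver (median -0.22). Deptor, an inhibitor that binds mTOR, was lower in heart (-1.62, SE 0.14; limma adjusted p 3.27e-08) and called in all 4 comparisons of a mole-rat with an outgroup. Ddit4, which encodes REDD1, a stress-induced brake on mTORC1, was higher in liver and also called in all 4, where the means of naked and Damaraland mole-rat were 9.98 and 10.45 and those of guinea pig and mouse 7.99 and 7.13 (contrast 2.66, SE 0.26; limma adjusted p 1.17e-07). Tbc1d7, the subunit that completes the TSC complex with the products of Tsc1 and Tsc2, was higher in liver (1.64, SE 0.14; limma adjusted p 1.8e-08). Rptor, which encodes the mTORC1 scaffold RAPTOR, was lower in liver (-1.29, SE 0.12; limma adjusted p 5.26e-08). Prkab2, an AMPK subunit gene, was lower in heart (-2.55, SE 0.11; limma adjusted p 1.44e-11), where guinea pig had 7318 to 10280 scaled reads beside 251 to 1429 in the others. Its liver contrast was called in the other direction at 1.55. In liver the Damaraland mean, 8.11, nevertheless lay under guinea pig, 8.81, with naked mole-rat at 9.98 and mouse at 6.18.

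Among substrates and other outputs of mTORC1 and AKT, 0 were higher and 4 lower of 17 in heart (median -0.33). In liver 1 was higher and 3 lower of 17 (median -0.52). Eif4ebp1, a translation repressor that mTORC1 inactivates, was lower in both tissues. Its heart contrast was -2.22 (SE 0.14; limma adjusted p 1.03e-09), with calls in all 4 comparisons, and its liver contrast was -1.59 (SE 0.15; limma adjusted p 6.08e-08). Tfeb, a transcription factor of lysosome genes, was lower in heart (-1.30, SE 0.12; limma adjusted p 5.08e-08).

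In the group of FoxO relatives and genes known as FoxO targets, 1 was higher and 4 lower of 18 in heart (median -0.34), and 5 were higher and 2 lower of 20 in liver (median 0.09). Called genes were 27.8% of the group in heart, beside 23.4% of all genes, and 35% in liver, beside 28.1%. Not all heart calls were shared by both mole-rats. Ccng2, called lower, had a mean at the floor, 5.36, in Damaraland mole-rat, beside 8.33 to 8.49 in the other species. Bnip3, also called lower, was 8.66 in naked mole-rat, beside 11.12 to 11.22 in the others. Bcl2l11, the cell death gene Bim, was lower in heart (-1.61, SE 0.14; limma adjusted p 3.92e-08). Cdkn1a, the cell cycle inhibitor p21, was higher in liver (1.96, SE 0.25; limma adjusted p 1.9e-06) and called in all 4 comparisons there. Trim63, a muscle ubiquitin ligase gene, was higher in liver (1.65, SE 0.19; limma adjusted p 7.8e-07), with low species means of 4.83 to 7.45, 0 reads being 4.29. Pdk4, a kinase that inhibits pyruvate dehydrogenase and a target named here after its values were seen, had contrasts of -2.54 in heart and 3.05 in liver. In mouse it had 18840 to 20266 scaled reads in heart and 54 to 248 in liver, whereas the other species had 313 to 4726 and 1243 to 12092.

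**Figure D5:**
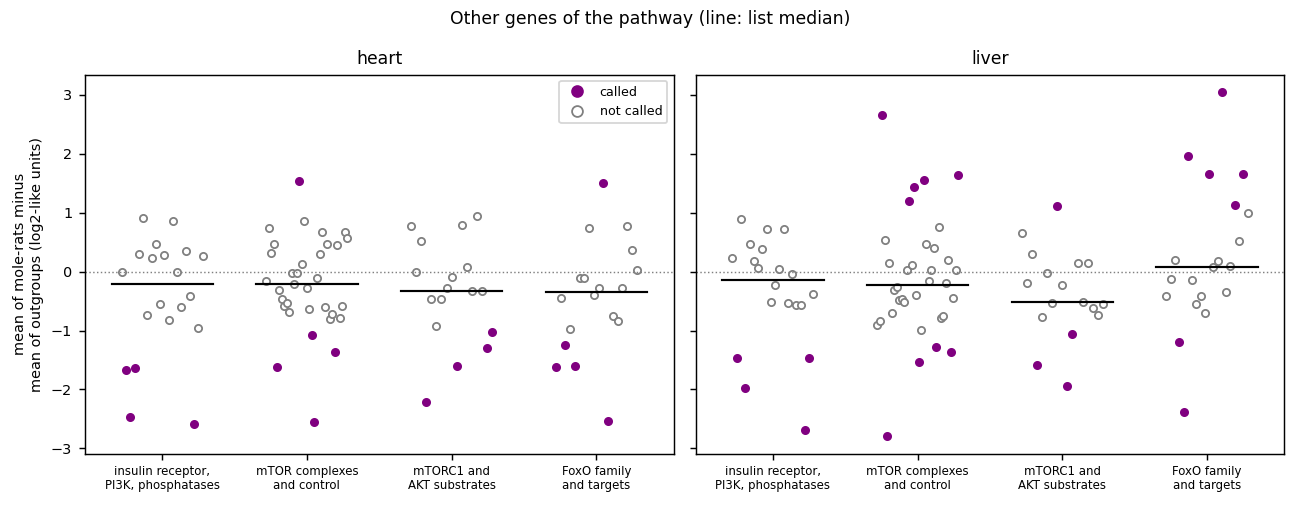
The mean of the mole-rats minus the mean of the outgroups (log2-like units) for the other pathway genes in 4 groups, in heart and liver; filled points were called, open points were not, and lines are group medians. In heart most filled points lie below 0, 16 of 18, and in liver 13 of 24 do.

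The members with the widest range of species means were Tsc1 and Foxo3 in heart and Foxo1 and Foxo3 in liver. The genes most like them by Pearson correlation over the 14 libraries of a tissue were Dcaf4 (0.98), Slc25a30 (0.98) and Pon3 (0.97) for Tsc1 and Ace (0.98), Phactr2 (0.97) and Amz2 (0.97) for Foxo3 in heart, among 6099 genes searched. In liver they were Map4k5 (0.98), Srr (0.97) and Arhgap42 (0.96) for Foxo1 and Clk1 (0.95), Ppp2r5e (0.93) and Mccc1 (0.93) for Foxo3, among 7588 genes. The libraries fall into 4 species, so these correlations mostly describe likeness in the 4 species means. Pon3, for example, had 11.89 in guinea pig heart and 6.98 to 8.55 in the other species.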

How the data were processed

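The deposited tables hold the authors' variance-stabilised log2-like values, 1 table per tissue, made with cutadapt, Salmon (version 013.1) and DESeq2 per the submitters' processing notes, which also name the build GRCm38 without a role. The index, the assignment of genes across species and the strand setting are not given in the sources used here. The 26 columns of other series were not used. Values start at a floor, given to genes without reads, of 5.3645 (heart) or 4.2893 (liver). Inverting the transform gave whole reads for 100% of values (tolerance 0.001), and these gave depths, scaled reads and ratios.

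Each tissue was fitted with limma 3.58.1 (R 4.3.3), with a coefficient per species, a variance trend and Benjamini-Hochberg adjustment, for genes with a mean of at least floor + 1. Nothing in the labels pairs samples across species, and p-values measure the spread between animals of these groups. On simulated data with 100 genes changed 4-fold and 100 changed 2-fold, 4-fold changes were called for 93% in heart (11264 genes) and 100% in liver (11412 genes), and 2-fold changes for 11% and 29%. The simulated counts had the same dispersion for every gene and no species difference beyond the planted one, shared by both mole-rats. A doubling moves these values by less than the size threshold, which holds down the 2-fold share. These shares therefore do not measure power in the real data. The members and gene lists were chosen with earlier results of these data known. Most further pathway genes were named by rule. In each group and tissue these were up to 2 per direction, with the largest called average contrast and no overlap between mole-rats and outgroups. Insr, Igf1r, Ccng2, Bnip3 and Pdk4 were named outside this rule. Alternatives covered thresholds, filters, scaling, variance models, a replicate block, leaving out each library and voom on the recovered reads, the last chosen after seeing the data.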

Additional observations from a re-analysis of the deposited data

Results flagged for a closer look

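Among 24 sets of 4 or 5 libraries (8 genes in Damaraland heart, Damaraland liver and naked mole-rat liver), 3 held a value apart from the rest of its set, where about 1 in 20 would by chance. Foxo3 in Damaraland liver replicate 5 was 9.78 (790 reads), against 8.56 to 8.88 in the others. Irs1 in naked mole-rat liver replicate 3 was 11.66 (3764 reads), against 10.94 to 11.02, and without that library naked minus Damaraland mole-rat was 1.03 instead of 1.19. Tsc1 in naked mole-rat liver replicate 2 was 8.57 (247 reads), against 8.93 to 9.0 in the others.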

How the results depend on the processing

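Counts moved mainly with the size threshold, by construction. Without it, members called in heart numbered 3 between the mole-rats, 5 for naked mole-rat with guinea pig, 6 for naked mole-rat with mouse, 8 for guinea pig with mouse, 6 in the average contrast and 2 in all 4 comparisons of a mole-rat with an outgroup. In liver they numbered 6 between the mole-rats, 4 for naked and 6 for Damaraland mole-rat with guinea pig, 4 for Damaraland mole-rat with mouse, 5 in the average contrast and 1 in all 4 comparisons. Other pathway genes were then 21 higher and 40 lower in heart and 23 and 40 in liver. At any size, 59.6% to 67.3% of all genes passed in the heart comparisons and 58.8% to 68% in liver. The share of all genes passing in all 4 comparisons at any size was not computed. Tested against a difference of 1, heart members called numbered 1 for naked mole-rat with guinea pig, 0 for naked and 1 for Damaraland mole-rat with mouse, 1 for guinea pig with mouse and 0 in the average contrast. In liver they numbered 0 between the mole-rats, 1 for naked mole-rat with mouse, 0 for Damaraland mole-rat with guinea pig and 0 in the average contrast. Pathway genes called higher were then 1 in heart and 7 in liver. For this test and for the other settings below, the share over all genes was not computed. Pathway genes called higher in heart were also 1 with each species above the filter and 7 with voom on the recovered reads, and array weights gave 1 member called between the mole-rats in heart.

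Leaving out each library gave 0 to 1 heart members called between the mole-rats, where 1 is Tsc2 without naked mole-rat replicate 3. Leaving out a mouse liver leaves 1 mouse library, whose spread is then taken from the other species. Samples of different species share only a replicate number: deviations of same-numbered samples had correlations between -0.26 and 0.30 (heart) or -0.23 and 0.15 (liver). A replicate block changed the call of 1 of 112 member contrasts, Damaraland mole-rat minus guinea pig for Tsc1 in liver, which became -1.03 and called. With the block, 3 other pathway genes in heart and 12 in liver were called higher, instead of 2 and 11. Apart from the size settings, 2452 of 2464 member contrasts over all alternatives stayed on their side of the threshold. Of the rest, 9 became called and 3 lost the call, and 0 contrasts called before or after were reversed. Contrasts that were not called could change sign when a library was left out. Guinea pig minus mouse for Foxo3 in liver ran from -0.90 to 0.07, and Damaraland mole-rat minus guinea pig for Akt1 in heart from -0.06 to 0.15.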

Other observations

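The female Damaraland liver lay within the range of the 4 males for 3 of the 8 genes, above it for Akt2 (10.51, males up to 10.49) and Irs1 (10.33, males up to 10.11), and below it for Mtor, Tsc1 and Tsc2.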
